A study of Mus musculus with 12 samples.

Results

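MiR-199a, miR-199b and miR-214 are 3 of the 509 miRNA names (arms joined) on a PCR panel measured in mouse islets, and 5 of its 750 miRNA spots assay them. The spots were chosen by name: every spot whose small RNA name, without species prefix and arm, is miR-199a, miR-199b or miR-214, with starred minor strands (marked # on the panel) taken only for miR-199b, where the panel has none. The members are 1 assay named miR-199a-3p, 1 named miR-199a, 1 named miR-199b, and a human-named and a mouse-named assay of miR-214. The samples were total RNA of hand-picked pancreatic islets from male C57BL/6 mice aged 2 to 3 months, kept overnight in culture after collagenase isolation. The LP0.5 group, 6 samples, came from offspring whose mothers ate the low-protein diet called LP0.5 during the whole pregnancy, and the Control group, 6 samples, from offspring of mothers on the control diet. The comparison asks how islet miRNAs of adult offspring differ between the maternal diets. Whether a sample pooled islets of several animals or litters is not given in the sources used here. Hand-picked islets are not purified cells, and besides endocrine cells they hold vessels and connective tissue.

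MiRNAs are short RNAs that pair with messenger RNAs, mainly through the seed near their 5′ end, and lower their translation or stability. The miR-199 and miR-214 genes are best known from mesenchymal cells, such as fibroblasts, pericytes and activated pancreatic stellate cells, and from fibrosis, and both strands of miR-199a accumulate in tissues. MiR-199a-3p is known to target Mtor, the nutrient-sensing kinase that governs beta cell growth.

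The mature sequences are shown because they decide which assays could read the same molecule. They are the RefSeq mouse entries (GRCm38.p6), all 3 names were matched to a hairpin, and capitals mark the seed, bases 2 to 8.
miR-199a-3p: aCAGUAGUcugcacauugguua
miR-199b-3p: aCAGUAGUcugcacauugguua
miR-199a-5p: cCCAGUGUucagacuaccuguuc
miR-214-3p: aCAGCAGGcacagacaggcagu
miR-214-5p: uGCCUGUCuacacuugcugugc
miR-761: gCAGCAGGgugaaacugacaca
MiR-199a-3p and miR-199b-3p matched at 22 of 22 bases, so an assay of either 3p strand cannot tell their genes apart. The seeds of miR-199a-3p and miR-214-3p matched at 5 of 7 bases and differed by U5C and U8G, counted from 1 at the 5′ end of the mature strand, with the miR-199a-3p base first. MiR-761 shares the seed of miR-214-3p and is on the panel, and its single spot has no ratio in the authors' deposited table. MiR-199b-5p is not printed.

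The 4 hairpins behind these strands lie in 3 places in the genome, and they are shown with the mature strands of the sequence table in capitals.
Mir199a-2: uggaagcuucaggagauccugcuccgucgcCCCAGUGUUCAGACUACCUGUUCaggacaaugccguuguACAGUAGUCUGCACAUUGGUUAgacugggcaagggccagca
Mir214: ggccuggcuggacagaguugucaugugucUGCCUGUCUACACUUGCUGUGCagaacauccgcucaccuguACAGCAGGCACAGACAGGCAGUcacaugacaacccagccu
Mir199a-1: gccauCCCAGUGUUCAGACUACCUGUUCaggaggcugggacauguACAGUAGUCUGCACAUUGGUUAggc
Mir199b: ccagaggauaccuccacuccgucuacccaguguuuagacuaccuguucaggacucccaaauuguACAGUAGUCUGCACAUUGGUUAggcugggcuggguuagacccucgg
On GRCm38.p6, Mir199a-2 lies at chr1:162217814-162217923 and Mir214 at chr1:162223368-162223477, both on the plus strand and 5444 bases apart. Both lie within the bounds of the noncoding RNA gene Dnm3os, on its strand, and opposite to the dynamin gene Dnm3. Mir199a-1 lies at chr9:21496495-21496564 on the minus strand, opposite to Dnm2, and Mir199b at chr2:32318460-32318569 on the plus strand, opposite to Dnm1. The miR-199a-3p sequence occurs in the Mir199a-1, Mir199a-2 and Mir199b hairpins, and the miR-199a-5p sequence matched the Mir199b hairpin at 22 of 23 bases, with the substitution C10U. The assays named miR-199a, miR-199b and miR-214 carry no arm in the files. In older naming an arm-less name stood for the strand taken as the main one and # for the other.

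Levels in single samples were not analysed here, because the per-sample columns match no sample label. The values below are the linear ratios of the authors' deposited table, headed as low-protein against control, with 1 value per spot and no replicate values, so no error or p-value can be given for any of them. When the unmatched columns were inspected, single wells of the miR-199a-3p, miR-199a and miR-199b assays lay many cycles from the other wells of the same assay, and the miR-199a assay had no value in several wells. Such wells can set a ratio, and their part in the ratios below was not tested. Of the 750 miRNA spots, 566 have a ratio, and all 5 member assays are among them. The direction rests on the column heading: read by it, a ratio above 1 is a higher level in LP0.5 islets. The study is known for a raised miR-199a-3p level after the low-protein diet, while the listed ratio of that assay lies below 1. The assay, offspring age, samples and reference behind that known result were not checked against those of the panel ratio. Whether the measures are alike, or whether the column is reversed, was not tested. No value analysed here settles the direction, so the text says only on which side of 1 a ratio is listed.

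The members were split. The assays of miR-199a were listed below 1, those of miR-214 modestly above 1, and that of miR-199b far above 1. At least 1.5-fold from 1 were 4 of the 5 members, 2 below and 2 above, where 35.3% of all miRNA spots with a ratio lay as far from 1 in either direction, 16.8% below and 18.6% above. The median log2 ratio of the members was 0.36, and that of all 566 miRNA spots was 0.01. At least 2-fold from 1 were 3 of the 5, 2 below and 1 above, beside 24.2% of all miRNA spots, 11.8% below and 12.4% above. With 5 assays that disagree in direction, the member median falls on 1 of the miR-214 assays and describes no common shift.

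**Figure D1:**
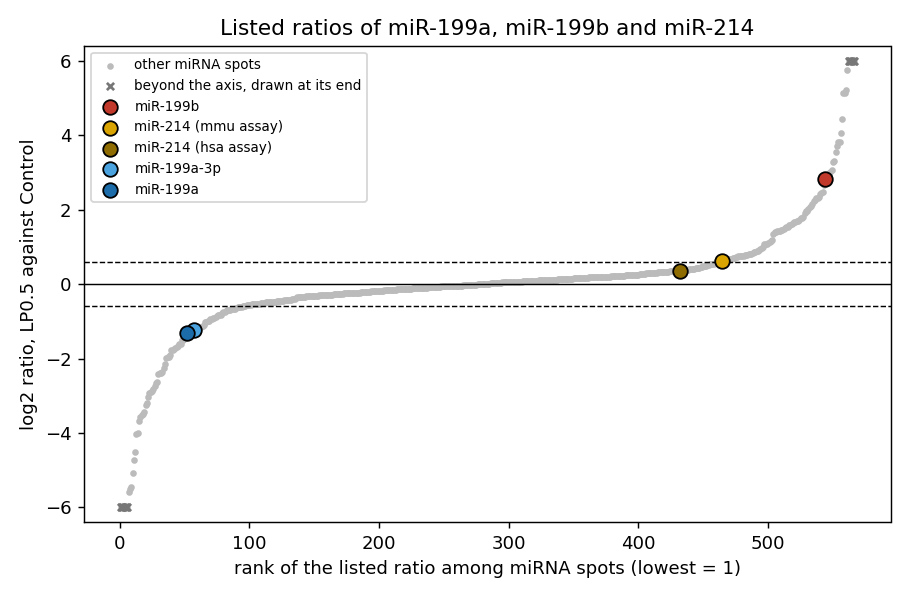
Each point is 1 of the 566 miRNA spots with a ratio, placed by rank on the horizontal axis and by its log2 ratio of LP0.5 against Control on the vertical axis, with broken lines at 1.5-fold. The log2 ratios ran from -13.2 to 25.1, and spots beyond the axis are drawn as crosses at its end. The assays of miR-199a lie in the low tail, those of miR-214 on the upper shoulder near the 1.5-fold line, and that of miR-199b in the high tail.

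MiR-199a was listed low by both of its assays. The authors' deposited table lists miR-199a-3p, the strand with Mtor among its known targets, at 0.422, or 2.37-fold below 1. It lists the assay named miR-199a, which has no arm in its name, at 0.403, or 2.48-fold below 1, again in the authors' deposited table. Only 56 of the other spots were listed lower than miR-199a-3p and 51 lower than miR-199a. The ratios of these assays lay 1.05-fold apart. Among 107 hairpin names with ratios under exactly 2 strand names, the median distance between strands was 1.47-fold and 8 pairs lay closer than this one. The assays sit in different blocks of the panel but in the same assay set, A, and so share the same U6 spots as their reference. In the authors' deposited table the 5 small RNA controls ran from 0.850 to 1.20 in the block of miR-199a-3p and from 0.961 to 1.30 in that of miR-199a. The plant miRNA ath-miR159a, a negative control, is at 1.96 in the first block and has no ratio in the second. Its other listed spot of set A, at 0.139 in the authors' deposited table, lies farther below 1 than both miR-199a assays.

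MiR-199b was listed on the other side. In the authors' deposited table the assay named miR-199b stands at 7.14, with 22 spots of the panel higher. This is 16.9-fold above miR-199a-3p and 17.7-fold above miR-199a, ratios set against ratios. The arm behind this assay is not given in the files: as a 3p assay it would read the same sequence as the miR-199a-3p assay, and the stretch of its hairpin that aligns with miR-199a-5p differs from that strand by 1 base. The assay is in set B, where the plant miRNA ath-miR159a, a negative control with no mouse target, was itself listed at 2.59 to 3.37 over 8 spots in the authors' deposited table. In the block of miR-199b the plant assay was listed at 2.87 and the 5 small RNA controls ran from 0.995 for U6 to 1.61 for Y1 in the authors' deposited table. The ratio of miR-199b was farther from 1 than all 8 plant spots and 39 of the 40 control spots of its set, the exception being a U87 spot at 0.133 in the authors' deposited table. Those 40 spots are 5 assays repeated over 8 blocks, with the reference U6 among them, so they are not 40 separate comparisons. In set A the plant assay has a ratio at 2 of 8 spots, at 0.139 and 1.96 in the authors' deposited table, and the first of these lies about as far from 1 as miR-199b. The part that a set-wide offset plays in it was not tested.

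MiR-214 was listed modestly above 1 by every assay of its hairpin, across both assay sets. The authors' deposited table lists the mouse-named assay, in set A, at 1.55 and the human-named assay, in set B, at 1.28. The starred assay miR-214#, the minor strand, is outside the rule for members and stands in set B at 1.71 in the authors' deposited table. The pair of miR-214 assays lay 1.20-fold apart, where 38 such pairs of assays of 1 name had a median distance of 1.31-fold and 14 pairs lay closer. The mouse-named and human-named assays were on the same side of 1, as were 22 of the 38 pairs. The mean of the miR-214 assays on the log2 scale corresponds to a ratio of 1.41, and miR-214# lay 1.22-fold from it. Among the 107 strand pairs 27 lay closer. In the blocks of the mouse-named and human-named assays the 5 controls were listed up to 1.27 and 1.37 in the authors' deposited table, both times for Y1. The human-named assay therefore lay within the range of the controls of its own block and the mouse-named assay above it. The plant assay lay farther from 1 than any miR-214 assay, at 3.01 in the block of the human-named assay, 2.87 in that of miR-214# and 0.139 in that of the mouse-named assay in the authors' deposited table.

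Mir199a-2 and Mir214 share a primary transcript in Dnm3os, and the assays of their products were listed on opposite sides of 1. The mean ratio was 0.413 for the miR-199a assays and 1.41 for the miR-214 assays, averaged on the log2 scale from the authors' deposited table, or 3.42-fold apart. Over 314 pairs of miRNA names with hairpins within 10 kb of each other, the median distance was 1.36-fold and 40 pairs lay farther apart. Only 169 of the 314 pairs were on the same side of 1, so opposite sides were common among neighbours. Most of the 314 pairs, 229, come from chromosome 12, which holds the large Dlk1-Meg3 cluster. Of the 85 pairs on other chromosomes 15 lay farther apart, with a median of 1.54-fold, and pairs of 1 cluster share assays and are not independent. MiR-199a is also made from Mir199a-1 on another chromosome, and the 3p strand from Mir199b too, so the assays of miR-199a can read products of other transcripts besides Dnm3os.

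**Figure D2:**
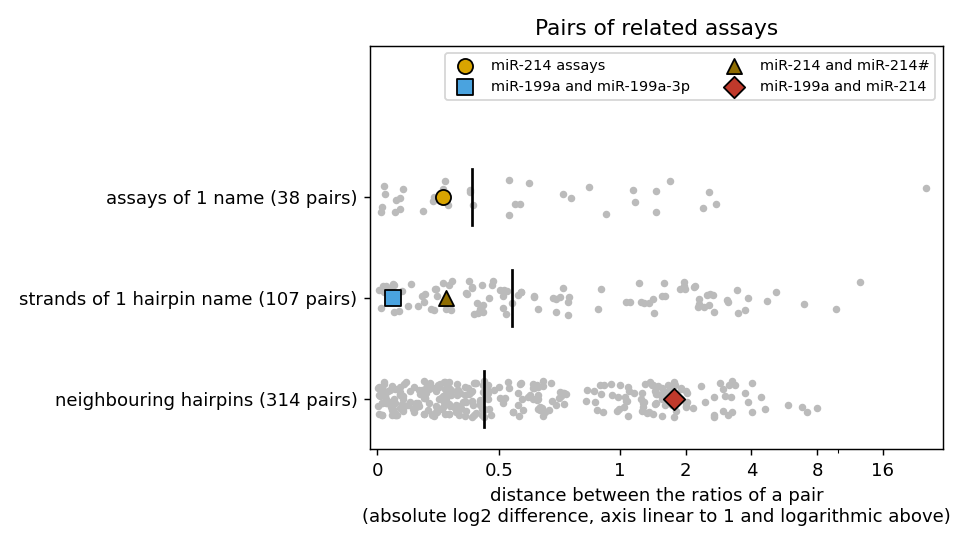
The horizontal axis is the absolute log2 difference between the ratios of a pair of related assays, and each grey point is 1 pair: 38 pairs of assays of 1 name, 107 pairs of strands of 1 hairpin name and 314 pairs of neighbouring hairpins, with black bars at the medians. The miR-199a strands, the miR-214 assays and the miR-214 strands lie below their medians, while the neighbours miR-199a and miR-214 lie far above theirs.

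The order of the 5 members was the same under 4 other references. From the values, the deposited ratios are relative to U6, with a mean log2 ratio of 0 over the 8 U6 spots of each set. Relative to the snoRNA135, snoRNA202, U87 and Y1 spots of the set, the median over all miRNA spots was -0.15 on the log2 scale. Over that reference and the 3 others, miR-199a-3p ran from -1.44 to -1.21 and miR-199a from -1.51 to -1.28 on the log2 scale. MiR-199b ran from 2.62 to 2.77. The mouse-named miR-214 assay ran from 0.40 to 0.66 and the human-named one from 0.14 to 0.29, so both stayed above 0, but the mouse-named assay passed 1.5-fold only relative to U6 and to the median of the miRNA spots of its set.

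**Figure D3:**
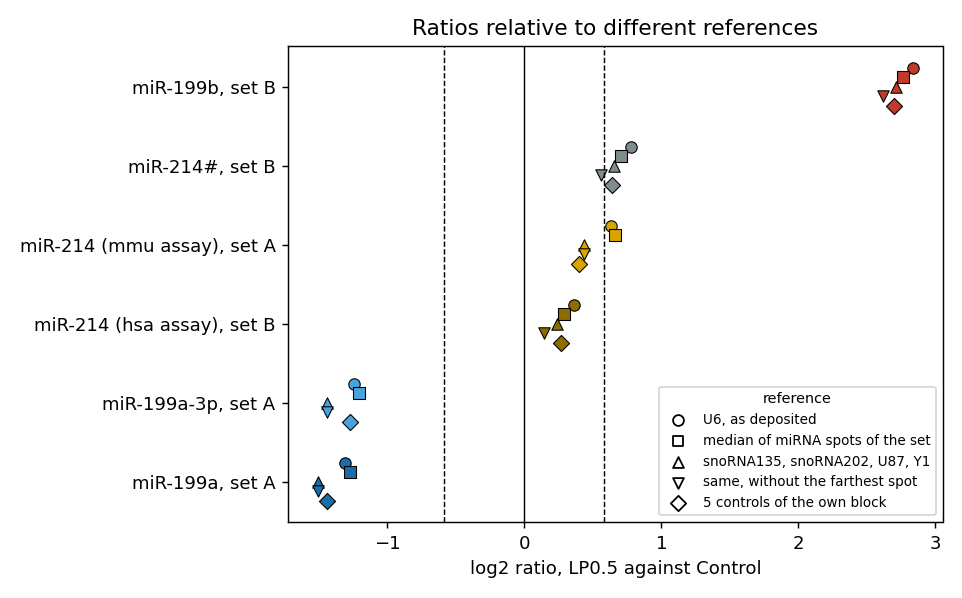
The log2 ratio of LP0.5 against Control is shown on the horizontal axis for the 5 members and for miR-214#, with a symbol for each of 5 references and broken lines at 1.5-fold. The miR-199a assays stay below the lower line and miR-199b above the upper line with each reference. The miR-214 members lie around or under the upper line, and miR-214# lies around or above it.

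Other miRNAs of connective tissue did not share 1 direction either. Of 23 assays with a ratio on a fibroblast and stellate cell list, 2 were at least 1.5-fold above 1, 2 as far below and 19 within, where 35.3% of all miRNA spots were past the limit, with a median log2 ratio of 0.14, or -0.06 relative to snoRNA135, snoRNA202, U87 and Y1. On that list the authors' deposited table has miR-145, a smooth muscle and fibroblast miRNA, at 2.66, and the assays of miR-10b at 2.18 (mouse-named) and 1.19 (human-named). It has miR-125b at 0.543, and 1 assay of miR-143, the cluster partner of miR-145, at 0.190, while the other miR-143 assay is at 1.11 there. MiR-152 stands at 0.696 in the authors' deposited table. Of the 6 mesenchymal marker assays among these, 2 were past the limit above 1 and 1 below. In bulk islets, fewer cells of a type and less RNA per cell cannot be told apart, and the part of connective tissue content in the ratios of miR-199a, miR-199b and miR-214 was not tested.

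Other miRNAs, taken from an MTOR pathway list, were listed on both sides of 1. Which of them act on Mtor itself, as miR-199a-3p does, and which on other parts of the pathway was not checked. Of 13 assays with a ratio, 1 was at least 1.5-fold above 1, 2 as far below and 10 within, beside 35.3% of all miRNA spots past the limit, with a median log2 ratio of 0.15, or -0.05 relative to snoRNA135, snoRNA202, U87 and Y1. Those past the limit in the authors' deposited table were miR-193a-3p at 21.7, miR-7b at 0.523 and miR-101b at 0.663. The list has 15 names, and miR-101a among them matched no assay name and was not counted. The assay named miR-101 was listed at -0.57 on the log2 scale, within the limit.

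Marker miRNAs of islet cells and of other cells that islets can hold are given by counts, to be read beside the 35.3% of all miRNA spots past 1.5-fold. Of 13 islet endocrine assays 1 was past the limit, miR-7b as above, and miR-375, the main islet miRNA, stands at 1.17 in the authors' deposited table. Of 4 acinar assays 1 was past the limit: the authors' deposited table has the assays of miR-217 at 1.83 and 0.950, miR-216a at 0.726 and miR-216b at 0.970. Of the 2 endothelial assays, the authors' deposited table has miR-126 at 0.975 and its starred strand at 0.647. Blood markers were past the limit in 3 of 6 assays, miR-142-5p at 0.305, miR-451 of red cells at 0.620 and miR-150 of lymphocytes at 1.78 in the authors' deposited table. Muscle markers were past it in 3 of 5, with 1 of the assays of miR-1 at 2.12 and the other at 0.962, miR-133a at 1.98 and miR-206 at 0.196 in the authors' deposited table. The liver marker miR-122 was at 1.19 in the authors' deposited table. These are ratios, so they do not show which cells the islet samples held, and levels behind them were not analysed here.

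**Figure D4:**
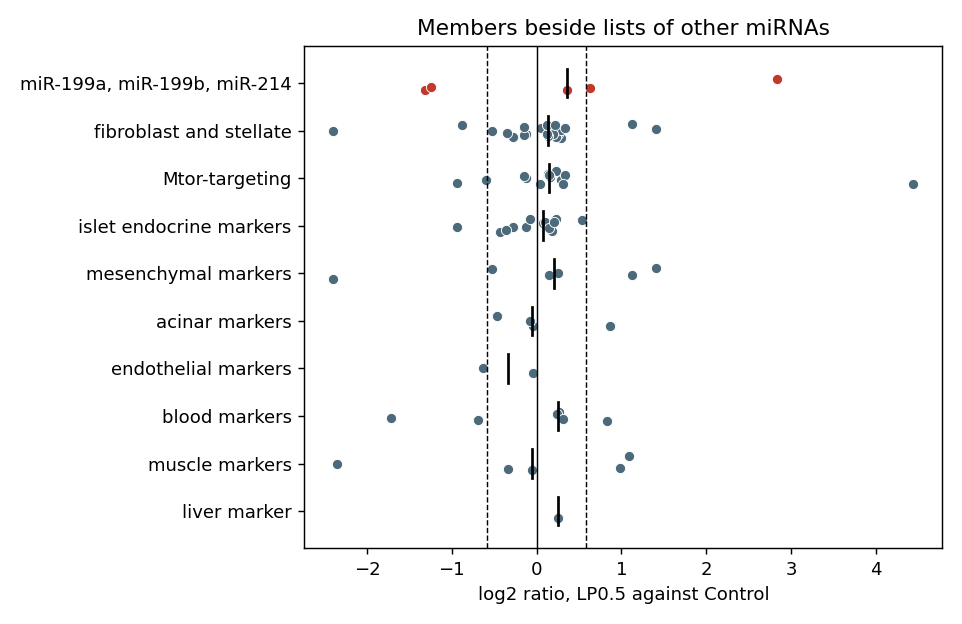
Log2 ratios of LP0.5 against Control, on the horizontal axis, are shown for the 5 members (red) and for each list of other miRNAs (blue), with 1 point per assay, black bars at the list medians and broken lines at 1.5-fold. The members span -1.31 to 2.84 around a median of 0.36, while 12 of 13 islet endocrine assays lie between the broken lines.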

How the data were processed

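Per the labels' protocols, islet RNA was assayed by RT-PCR with TaqMan probes carrying FAM. The submitters' processing notes name limma without its role. The authors deposited 1 linear ratio per spot, whose column heading puts the low-protein group against Control; how samples were averaged and which cycles counted as detected is not known here. A second deposited table gives the assay number, name and set of each of the 846 spots (an identifier, other than a measurement, per the file headers). Its 12 per-sample columns match no label and entered no computation, so the limma fit, its alternatives and a measure of likeness over samples were not run. Depth does not apply to PCR ratios, and their precision is unknown.

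Ratios were turned into log2 with Python 3.11.15 (numpy 2.4.6, pandas 2.3.3, matplotlib 3.10.9). Spots of blocks numbered 1 and 2 form set A, those of 3 and 4 set B. For the controls and the plant assay the set rests on the block alone, because their identifiers read B in every block. A limit of 1.5-fold was used for counts. Alternatives were other references, a 2-fold limit and no starred rows. Paired assays share a name; strand pairs are hairpin names with exactly 2 strand names listed; neighbours are hairpins within 10 kb in the RefSeq table. Listed miRNAs were matched by name, without starred strands; miR-7a was taken from the assay named miR-7, and miR-126-3p and miR-126-5p from miR-126 and its starred strand. Named miRNAs were the members, miRNAs sharing a seed, starred miR-214, miR-143, miR-145, miR-152, miR-375 and list members past 1.5-fold. MiR-101, miR-126, miR-122, miR-216a, miR-216b and second assays of a named miRNA were added after their values were seen. The computation of counts and references was tested on simulated data with planted shifts far past the limit and little noise. Such a test does not bear on the precision of the real ratios. Members and lists were chosen with earlier results of these data known.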

Additional observations from a re-analysis of the deposited data

How the results depend on the processing

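No paired analysis was possible because the per-sample columns match no sample label, and leaving out single samples, cycle limits and the limma fit could not be run for the same reason. The count of members at least 1.5-fold from 1 was 4 (2 above, 2 below). It was 3 with snoRNA135, snoRNA202, U87 and Y1 as the reference, with that reference without its farthest spot (U87, chosen after seeing the data), with the 5 controls of the spot's own block (chosen after seeing the data), and at a 2-fold limit, each time because the mouse-named miR-214 assay no longer passed. Over all miRNA spots, the snoRNA135, snoRNA202, U87 and Y1 reference put 16.1% past the limit above 1 and 23.0% below, and 14.5% and 23.9% without the farthest spot, so the balance of the panel turned from above 1 to below. The count of members was 4 with the median of the miRNA spots and without starred rows, of which the members hold none. The median log2 ratio of 0.36 ran from 0.14 to 0.29 over the 4 other references. No member changed its side of 1, and all 20 member values under other references changed by under 0.273 on the log2 scale. A reference moves every spot of a set, or of a block, by the same amount, so these are not 20 separate checks. The limit of 0.273 is the SD of repeated control spots averaged over the 5 controls. It includes the U87 spot at 0.133 and was not computed without that spot. That spread comes from spots of control assays, not from samples, and the signal over background behind each ratio was not analysed here.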
